A study of Mus musculus with 52 samples.

Results

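The 248 immunoglobulin gene segments described here were the rows of both deposited tables whose annotated gene type begins with IG_ and ends with _gene, so pseudogenes were left out. They were 248 of the 38997 genes listed in any of 7 tissues, and comprised 13 constant genes, 214 variable segments, 13 joining segments and 8 diversity segments. The heavy-chain locus (Igh, chromosome 12) held 128, the kappa locus (Igk, chromosome 6) 108 and the lambda locus (Igl, chromosome 16) 11, and Gm20730, a variable segment on chromosome 6, lay far outside the kappa locus. Spleen listed 247 of the 248, against 48 in eyes, 99 in liver, 94 in prostate and 85 in testes.

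Antibody genes are assembled in B cells by joining a variable, for heavy chains a diversity, and a joining segment, after which the joined exon is spliced to a constant gene. The constant gene of the heavy chain sets the isotype: Ighm for IgM, Ighd for IgD, Ighg1, Ighg2b, Ighg2c and Ighg3 for the IgG subclasses, Ighe for IgE and Igha for IgA. Light chains are kappa, with the single constant gene Igkc, or lambda, with Iglc1 to Iglc4. Resting B cells carry membrane IgM and IgD, whereas plasma cells hold far more immunoglobulin transcript per cell and secrete the protein. Each B cell clone uses its own joined segments, so the level of 1 variable segment sums over the clones that use it.

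The groups were male wild-type mice and male mice homozygous for Tug1_tm1.1Vlcg (Tug1-/-), in which lacZ replaces the body of the noncoding gene Tug1. Spleen, eyes, liver and heart, and embryonic fibroblasts (MEFs), had 3 wild-type and 3 Tug1-/- samples each, labelled as a C57BL/6J/129S6 background at N3-C57BL/6J with no Neo, and prostate had 3 and 2. Testes came from 4 wild-type mice (C57BL/6J, no Neo), 4 Tug1-/- mice and 3 rescue mice, the last 2 groups carrying Neo and LacZ, so background and genotype cannot be told apart there. Rescue mice were Tug1-/- with a Tug1 transgene that rtTA3, driven by the ubiquitous CAG promoter, switches on under doxycycline. The fibroblasts came from embryonic littermates, and the ages of the mice behind the tissues are not given in the sources used here.

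Every value below is a group mean computed by the authors as TPM, a relative abundance that allows for the length of each gene and is scaled to the same total in every sample. Single samples are not in these tables, so no difference could be set against the spread between replicates, no test was made, and every difference is a description of these group means. A ratio is Tug1-/- over wild type after 0.1 TPM was added to both means, on the log2 scale, and understates the change of low genes. Where a pair of values follows a gene, the wild-type mean comes first and the Tug1-/- mean second, and in testes a last value is the rescue mean. Genes whose 2 means averaged at least 1 TPM were compared, and a gene past 1.5-fold in either direction was counted. Tug1 itself matched the labels, with 53.8 TPM in wild-type against 0.0608 TPM in Tug1-/- spleen, and between 0.00832 and 0.885 TPM in the Tug1-/- means of the other tissues. The mean normalized reads summed to between 3.87e+07 and 4.83e+07 per tissue, testes not included, and immunoglobulin segments took 2.75% of them in spleen.

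The segments that the results turn on are shown here, read 5′ to 3′ from the GENCODE vM21 transcripts of GRCm38, the build of the tables. The joining segments come first, since they are short enough to be shown whole and all 3 loci can be set side by side. Capitals mark a run of 12 bases, searched on the coding strand: TGGGG, then 4 bases of any kind, GG and 1 base in heavy-chain segments, and TT, 1 base, GG, 4 bases, GG and 1 base in light-chain segments. This run encodes the conserved tryptophan or phenylalanine and 2 glycines of the joining region. It was found in 10 of the 11 segments shown and not in Igkj3, and the segments are 38 to 54 bases long, shorter than a sequencing read.
Ighj1 (chr12:113429781-113429833, minus strand): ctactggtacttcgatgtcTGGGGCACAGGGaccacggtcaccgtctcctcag
Ighj2 (chr12:113429468-113429515, minus strand): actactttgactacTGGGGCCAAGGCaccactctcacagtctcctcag
Ighj3 (chr12:113429085-113429132, minus strand): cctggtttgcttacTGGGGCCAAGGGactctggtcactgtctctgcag
Ighj4 (chr12:113428514-113428567, minus strand): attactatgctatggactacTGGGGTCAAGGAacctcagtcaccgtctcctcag
Igkj1 (chr6:70722562-70722599, plus strand): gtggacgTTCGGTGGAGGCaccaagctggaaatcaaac
Igkj2 (chr6:70722916-70722954, plus strand): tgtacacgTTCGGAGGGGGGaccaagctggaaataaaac
Igkj3 (chr6:70723223-70723260, plus strand): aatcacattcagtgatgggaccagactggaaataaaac
Igkj4 (chr6:70723548-70723585, plus strand): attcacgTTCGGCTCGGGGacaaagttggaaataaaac
Igkj5 (chr6:70723886-70723923, plus strand): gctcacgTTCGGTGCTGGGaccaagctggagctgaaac
Iglj1 (chr16:19063225-19063262, minus strand): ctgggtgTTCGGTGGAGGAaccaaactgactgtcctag
Iglj3 (chr16:19067041-19067078, minus strand): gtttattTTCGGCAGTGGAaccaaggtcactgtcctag

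Diversity segments are shorter still, at 10 to 23 bases for the 8 listed. The 3 highest in spleen are shown because their TPM, divided by so short a length, rests on very few reads.
Ighd1-1 (chr12:113482170-113482192, minus strand): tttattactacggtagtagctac
Ighd3-2 (chr12:113448214-113448229, minus strand): agacagctcaggctac
Ighd4-1 (chr12:113430528-113430538, minus strand): ctaactgggac

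Of the variable segments, the last 60 coding bases are shown for 8 of those with the widest ratios in spleen, for Igkv6-23 and Igkv6-32 of prostate, and for the most abundant pair of testes, Ighv1-84 and Igkv4-63. They are the end of the exon that is joined to a diversity or joining segment. Capitals mark the last in-frame cysteine codon, the conserved cysteine near the end of a variable region.
Ighv3-4 (chr12:114253617-114253676, minus strand): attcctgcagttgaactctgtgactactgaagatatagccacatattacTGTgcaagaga
Ighv15-2 (chr12:114564578-114564637, minus strand): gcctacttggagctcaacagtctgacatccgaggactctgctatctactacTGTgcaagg
Ighv1-56 (chr12:115242802-115242861, minus strand): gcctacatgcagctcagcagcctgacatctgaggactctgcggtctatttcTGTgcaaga
Ighv1-42 (chr12:114937113-114937172, minus strand): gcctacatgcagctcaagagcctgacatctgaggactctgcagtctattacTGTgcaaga
Ighv1-84 (chr12:115980702-115980761, minus strand): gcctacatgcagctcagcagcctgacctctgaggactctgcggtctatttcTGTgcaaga
Igkv17-127 (chr6:67861600-67861659, plus strand): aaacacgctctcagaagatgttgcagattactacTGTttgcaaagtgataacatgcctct
Igkv3-2 (chr6:70699008-70699067, plus strand): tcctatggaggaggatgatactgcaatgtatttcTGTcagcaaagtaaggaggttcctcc
Igkv4-68 (chr6:69304834-69304893, minus strand): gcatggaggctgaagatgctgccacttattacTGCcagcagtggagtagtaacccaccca
Igkv4-63 (chr6:69377944-69378003, minus strand): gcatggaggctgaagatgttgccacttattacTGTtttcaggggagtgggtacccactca
Igkv19-93 (chr6:68736297-68736356, minus strand): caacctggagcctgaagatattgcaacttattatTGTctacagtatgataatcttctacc
Igkv6-23 (chr6:70260409-70260468, minus strand): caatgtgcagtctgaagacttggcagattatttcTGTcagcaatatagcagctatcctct
Igkv6-32 (chr6:70074024-70074083, minus strand): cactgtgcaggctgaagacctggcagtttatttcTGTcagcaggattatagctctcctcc

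Segments of one family can end alike: Ighv1-56 and Ighv1-84 differ at 1 of these 60 bases, whereas Igkv6-23 and Igkv6-32 differ at 11. Of the 227 segments whose transcript is at least as long as a read, 148 shared no window of read length with another gene and 7 shared at least 50% of their windows, led by Ighv1-71 with 96.9%, mostly with Ighv1-62-2. None of the constant genes described below shared one. Since the authors counted uniquely mapped reads, levels of segments with shared windows are uncertain.

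In spleen, immunoglobulin segments made up 10.6% of all TPM in wild-type and 12.5% in Tug1-/- mice. IgM and kappa transcripts were higher in the Tug1-/- mean, IgD, IgA and lambda transcripts were lower, and the variable segments spread in both directions. Of the 240 segments compared, 60 (25%) were past 1.5-fold higher, against 4.99% of all 16810 genes, and 28 (11.7%) were past it lower, against 4.37%. Their median log2 ratio was 0.15, beside -0.11 over all genes. When the all-gene median was set to 0, 75 segments were past 1.5-fold higher and 25 lower. The shares of all genes above belong to the ratios before this centring.

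**Figure D1:**
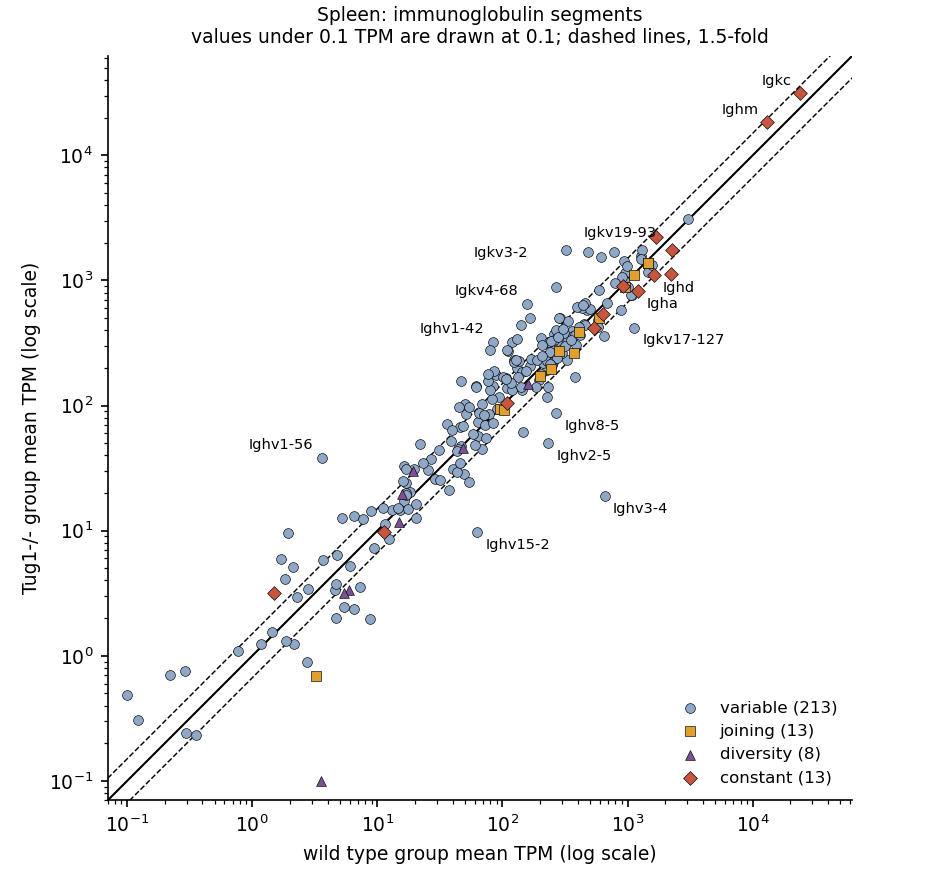
Group mean TPM of the 247 segments listed in spleen, wild type on the horizontal and Tug1-/- on the vertical axis, both on log scales, with 1 point per segment. Joining segments other than Iglj4 lie close to the line of equality, Ighm and Igkc above it, and Ighv3-4 (654 against 18.8 TPM) farthest below it among segments over 10 TPM.

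Ighm, the constant gene of IgM and the most abundant heavy-chain gene, averaged 13038 TPM in wild-type against 18346 TPM in Tug1-/- spleen, a log2 ratio of 0.49. Ighd, which is spliced from the same primary transcript as Ighm and marks mature naive B cells, averaged 1632 and 1103 TPM, a log2 ratio of -0.57. The Ighm level was therefore 7.99 times that of Ighd in the wild-type mean and 16.6 times in the Tug1-/- mean. Neither gene alone was past 1.5-fold.

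The switched isotypes were level or lower, except Ighe. Igha, encoding IgA, averaged 1220 TPM in wild type against 820 TPM in Tug1-/-. Ighg3 averaged 535 and 418 TPM, and Ighg2b 630 and 535 TPM. Ighg2c averaged 920 and 910 TPM and Ighg1 108 and 104 TPM, ratios near 0. Ighe, encoding IgE, was the one heavy constant gene past 1.5-fold, at 1.49 and 3.18 TPM, from a mean of 56.2 normalized reads.

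As shares of the summed heavy constant TPM, Ighm took 72.1% in wild type and 82.5% in Tug1-/-. Ighd took 9.02% and 4.96%, and Igha 6.74% and 3.68%. With Ighm left out, the summed level of the other 7 heavy constant genes was lower in Tug1-/-, at a log2 ratio of -0.37, whereas the sum with Ighm gave 0.30.

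Among light chains, Igkc averaged 23852 TPM in wild-type against 31214 TPM in Tug1-/- spleen (log2 ratio 0.39), and the 4 lambda constant genes summed to 6189 and 5104 TPM. Lambda thus made up 20.6% of light constant TPM in wild type and 14.1% in Tug1-/-. The lambda genes did not move as 1 group: Iglc1 averaged 1672 and 2214 TPM, Iglc2 2269 and 1763 TPM, and Iglc3 2236 and 1117 TPM. Iglc3 was the only light constant gene past 1.5-fold, with a log2 ratio of -1.002. The 3 lambda variable segments were closer to level: Iglv1, the most abundant variable segment in spleen, averaged 3041 and 3092 TPM, Iglv2 1444 and 1163 TPM and Iglv3 678 and 661 TPM.

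Variable segments of the kappa and heavy loci were higher in sum and uneven one by one. The kappa segments listed summed to 26919 TPM in wild type against 33736 TPM in Tug1-/- (log2 ratio 0.33), and 29 of the 100 compared were past 1.5-fold higher and 9 lower. The heavy segments summed to 17797 and 21292 TPM (log2 ratio 0.26), with 29 of 103 past 1.5-fold higher and 14 lower. The summed variable level was 1.04 times the summed constant level in wild type and 1.02 times in Tug1-/-, so the 2 classes kept nearly the same proportion.

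The 5 lowest ratios among segments averaging at least 10 TPM began with Ighv3-4, at 654 TPM in wild type against 18.8 TPM in Tug1-/-, a log2 ratio of -5.12. Next were Ighv15-2 at 62.5 and 9.72 TPM, Ighv2-5 at 230 and 49.99 TPM, Ighv8-5 at 267 and 86.7 TPM and Igkv17-127 at 1135 and 420 TPM. They belong to 5 different families. Ighv3-4 rested on a mean of 1787 normalized reads, and which of the samples carried them is not in the table.

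The 5 highest ratios were those of Ighv1-56, at 3.62 TPM in wild type against 38.4 TPM in Tug1-/- (log2 ratio 3.37), Igkv3-2 at 320 and 1735 TPM, Igkv4-68 at 157 and 650 TPM, Ighv1-42 at 83.7 and 323 TPM, and Igkv19-93 at 479 and 1701 TPM. Only Igkv1-117 was above Igkv3-2 and Igkv19-93 among the kappa segments of the Tug1-/- mean. The 4 most abundant kappa segments over both means stayed within 1.5-fold: Igkv1-117 averaged 1308 and 1754 TPM, Igkv3-4 1556 and 1333 TPM, Igkv1-135 1287 and 1571 TPM, and Igkv1-110 1268 and 1475 TPM.

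Families differed in the number of members that moved. Of the 26 Igkv4 segments, 13 were past 1.5-fold higher and 2 lower, and the family's share of kappa variable TPM was 13.8% in wild type and 17.6% in Tug1-/-. Of the 9 Igkv3 segments, 5 were higher and 1 lower, whereas of the 10 Igkv8 segments 1 was higher and 2 lower. In the heavy locus, 15 of the 50 Ighv1 segments compared were higher and 6 lower, and this largest family took 51.5% of heavy variable TPM in wild type and 58.1% in Tug1-/-. The 6 Ighv3 segments went the other way, with none higher and 3 lower, and their share was 7.08% and 3.39%. That share rests on Ighv3-4, without which the other 5 took 3.40% and 3.31%.

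The spread of usage was close between the means for kappa and narrower in Tug1-/- for heavy segments. The 5 most abundant heavy segments held 26.4% of heavy variable TPM in wild type and 31.98% in Tug1-/-, and the 5 most abundant kappa segments 24.3% and 24.4%. The inverse Simpson number, the count of equally used segments that would give the same evenness, was 38.1 and 32.3 for heavy and 38.7 and 39.8 for kappa segments. With the kappa segments ordered by coordinate and cut into 3 runs, the middle run had 13 of 33 past 1.5-fold higher (median log2 ratio 0.41), beside 6 of 34 and 10 of 33 in the outer runs (medians 0.24 and 0.04). The middle run holds Igkv4 segments such as Igkv4-68 and Igkv4-63, so its counts overlap those of the Igkv4 family above.

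The joining segments were within 1.5-fold but for Iglj4, which averaged 3.23 and 0.689 TPM from a mean of 1.20 normalized reads. The other 12, all averaging at least 10 TPM, were slightly lower in Tug1-/-, with log2 ratios between -0.50 and -0.03. Igkj5 and Igkj4, the highest, averaged 1468 and 1385 TPM and 1457 and 1372 TPM, and Igkj2 averaged 1123 and 1100 TPM. Igkj3, whose sequence above lacks the motif, was counted at 950 and 884 TPM and Igkj1 at 590 and 503 TPM. The heavy joining segments ranged from 95.1 and 93.4 TPM for Ighj2 to 410 and 385 TPM for Ighj4, with Ighj3 at 284 and 274 TPM and Ighj1 at 103 and 93.0 TPM. The lambda segments Iglj1 (370 and 261 TPM) and Iglj3 (246 and 195 TPM) had the lowest ratios of the 12, and Iglj3p averaged 200 and 172 TPM. These levels rested on 77.1 to 890 mean normalized reads per segment.

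Diversity segments rested on fewer still. Ighd4-1, the 11-base segment shown above, averaged 161 and 148 TPM from a mean of 25.3 normalized reads, and Ighd1-1 48.0 and 45.9 TPM from 16.1. Of the 8 compared, 3 were past 1.5-fold lower and 1, Ighd3-2 at 19.2 and 29.8 TPM, higher. Ighd5-2 was listed at 0 in Tug1-/- and at 3.57 TPM in wild type, with a mean of 0.236 normalized reads.

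The cells that make these transcripts were read from marker lists. All 18 B cell markers passed the filter, and none was past 1.5-fold higher and 2 lower: the summed level was 7810 TPM in wild type against 6032 TPM in Tug1-/-, with a median log2 ratio of -0.37. Cd79b, a signalling chain of the B cell receptor, averaged 1865 and 1378 TPM, and its partner Cd79a 1295 and 947 TPM. The 2 past 1.5-fold were Fcer2a, the low-affinity IgE receptor of mature B cells, at 371 and 233 TPM, and Vpreb3 at 98.7 and 65.7 TPM. Relative to the summed B cell list, a comparison added after the values were seen, 116 segments were past 1.5-fold higher and 18 lower. The same scaling put the median of all genes at 0.26, with 12.2% of them past 1.5-fold higher and 1.13% lower.

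Of 11 plasma cell markers, 2 were past 1.5-fold higher and none lower, with a median log2 ratio of 0.27. Jchain, which links IgM and IgA into polymers, averaged 1985 and 2445 TPM, Mzb1, a chaperone of antibody assembly, 668 and 652 TPM, and Txndc5 198 and 204 TPM. The 2 past the fold were Derl3 (23.8 and 36.1 TPM) and Fkbp11 (15.3 and 23.5 TPM), both of the secretory pathway. Mzb1, Sdc1 (20.1 and 18.8 TPM) and Irf4 (87.6 and 74.2 TPM) were below wild type in Tug1-/-, and the other markers of the list above it. Whether the rises came from plasma cells was not tested. In bulk tissue, fewer cells of a type and less RNA per cell cannot be told apart.

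Of the genes of immunoglobulin assembly and diversification, the polymerase Polh was within 1.5-fold, at 34.8 and 41.0 TPM. Of 12 immunoglobulin receptors and transporters, none was higher and 2 were lower, Fcer2a and Pigr (2.24 and 1.33 TPM), which carries polymeric immunoglobulin across epithelia. Fcmr, the IgM receptor, averaged 617 and 449 TPM and Fcer1g 341 and 336 TPM.

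T cell receptor segments, the same kind of gene in T cells, were less spread than the immunoglobulin segments. Of 142 compared, 6 (4.23%) were past 1.5-fold higher and 16 (11.3%) lower, with quartiles of the log2 ratio at -0.37 and 0.08, beside -0.23 and 0.58 for immunoglobulin segments. None of 13 T cell markers was past 1.5-fold, and none of 8 macrophage markers.

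Transcripts of other cells differed between the group means of spleen. All 10 exocrine pancreas markers were past 1.5-fold higher in Tug1-/-, their sum being 75.7 TPM in wild type against 10067 TPM in Tug1-/-, for example Ctrb1 at 3.14 and 2154 TPM. All 7 neutrophil markers (sums 1561 and 3336 TPM) and all 10 erythroid markers (25563 and 46256 TPM) were past it higher, and all 4 hepatocyte markers past the filter were past it lower, Alb at 16.4 and 0.0843 TPM. Of 3 markers of mucosal and glandular epithelium past the filter, 1 was past it higher and 1 lower. Seminal vesicle markers were not listed, no eye or prostate marker passed the filter, and the 1 testis germ cell marker that did was within the fold. With 3 samples behind each mean, a single sample can carry such transcripts. Their part in the values of the immunoglobulin segments and of the plasma cell markers was not tested.

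**Figure D2:**
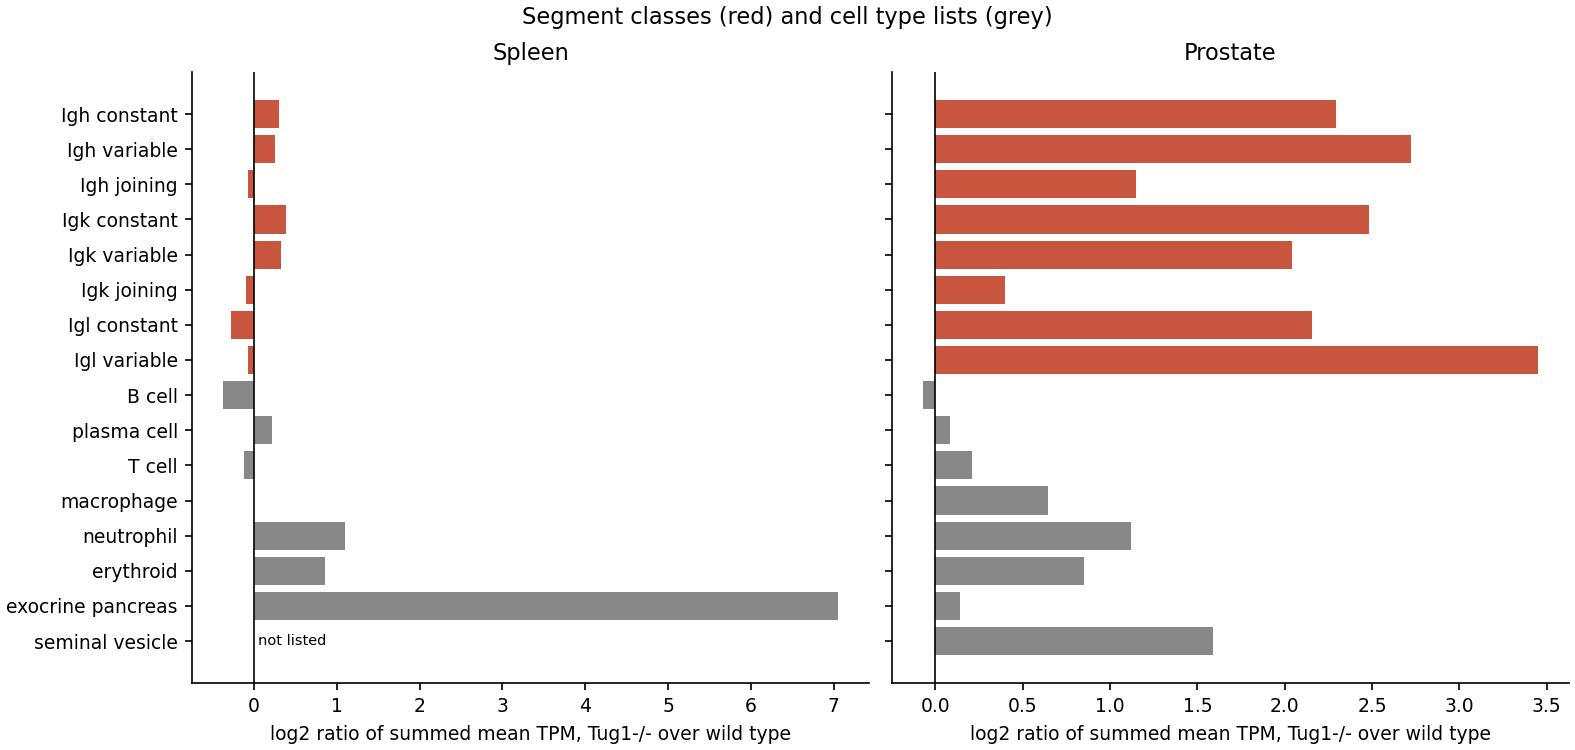
Log2 ratio of summed group mean TPM, Tug1-/- over wild type, for segment classes (red) and marker lists (grey) in spleen and prostate, on separate horizontal scales. In spleen the heavy and kappa constant and variable sums lie above 0 and the B cell list below it, and in prostate every segment class lies above 0 with the B cell list near 0.

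In prostate, the IgM, IgA, kappa and lambda constant genes and most other immunoglobulin segments were higher in the Tug1-/- mean. The sum over the 94 listed was 130 TPM in wild type against 645 TPM in Tug1-/-, 4.95 times as much. Of 45 compared, 42 were past 1.5-fold higher, against 4.67% of all 15110 genes, and 3 lower, against 2.05%, with none in between. These counts lean on the filter, since 31 of the 45 were under 1 TPM in wild type and passed through the Tug1-/- mean alone. Of the 14 with at least 1 TPM in wild type, 11 were past 1.5-fold higher and 3 lower, and among these the 4 variable segments were split 2 and 2. With no filter, 76 of the 94 listed were past 1.5-fold higher and 14 lower, and with at least 10 mean normalized reads, a limit set after the values were seen, 23 of 25 were higher and 2 lower. The shares of all genes above belong to the main filter, not to these settings. Of the 94, 66 rested on under 10 mean normalized reads.

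Ighm averaged 25.2 TPM in wild-type against 128 TPM in Tug1-/- prostate (log2 ratio 2.34) and took 92.1% and 95.4% of heavy constant TPM. Igkc averaged 37.2 and 209 TPM, and the lambda genes Iglc1 2.25 and 10.8 TPM, Iglc2 1.43 and 5.99 TPM, and Iglc3 1.30 and 5.76 TPM, log2 ratios between 2.00 and 2.48. Igha averaged 1.02 and 3.10 TPM. Ighd, under the filter, was level at 0.569 and 0.587 TPM, so the Ighm level was 44.3 times that of Ighd in wild type and 219 times in Tug1-/-. Ighg2b (0.256 and 0.599 TPM), Ighg2c (0.290 and 0.556 TPM) and Ighg3 (0.0308 and 1.40 TPM) were too low to be compared.

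The most abundant variable segments were partly different in the 2 groups, with Igkv14-126 and Igkv15-103 among the 5 highest kappa segments of both. The highest of the Tug1-/- mean was Igkv6-23, at 0.146 TPM in wild type against 33.8 TPM in Tug1-/-, followed by Ighv5-6 (0.152 and 19.1 TPM), Ighv1-26 (0.374 and 15.6 TPM), Iglv1 (1.27 and 15.1 TPM), Igkv4-68 (0.268 and 14.4 TPM) and Igkv3-2 (0.0679 and 12.5 TPM). Igkv4-68 and Igkv3-2 were also among the 5 highest ratios of spleen. Igkv14-126 averaged 3.09 and 12.4 TPM. Against all of these, Igkv6-32 averaged 24.4 TPM in wild type and was listed at 0 in Tug1-/-, with a mean of 77.2 normalized reads, and it made up most of the 36.5 TPM of the kappa segments in wild type. The other segments past 1.5-fold lower were Ighv3-1, at 7.91 TPM and listed at 0 in Tug1-/-, and Igkj5, at 2.41 and 0.930 TPM.

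Usage was more concentrated in wild type when all listed segments were included. The 5 most abundant kappa segments held 82.5% of kappa variable TPM there and 54.1% in Tug1-/-, and the inverse Simpson number was 2.19 and 11.2. For heavy segments the 5 highest held 78.2% and 59.0%, with inverse Simpson numbers of 2.87 and 9.99. In wild type, a single segment gave most of the level of each of these loci. Igkv6-32 gave 24.4 of 36.5 TPM among kappa segments, and Ighv3-1 gave 7.91 of 13.7 TPM among heavy segments. These segments were listed at 0 in Tug1-/-, and the spread of usage without them was not computed. Of the 94 segments, 28 were listed at 0 in wild type and 12 in Tug1-/-. Both groups were much more concentrated than spleen, and with 3 and 2 samples behind the means, a single sample can carry a segment.

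**Figure D3:**
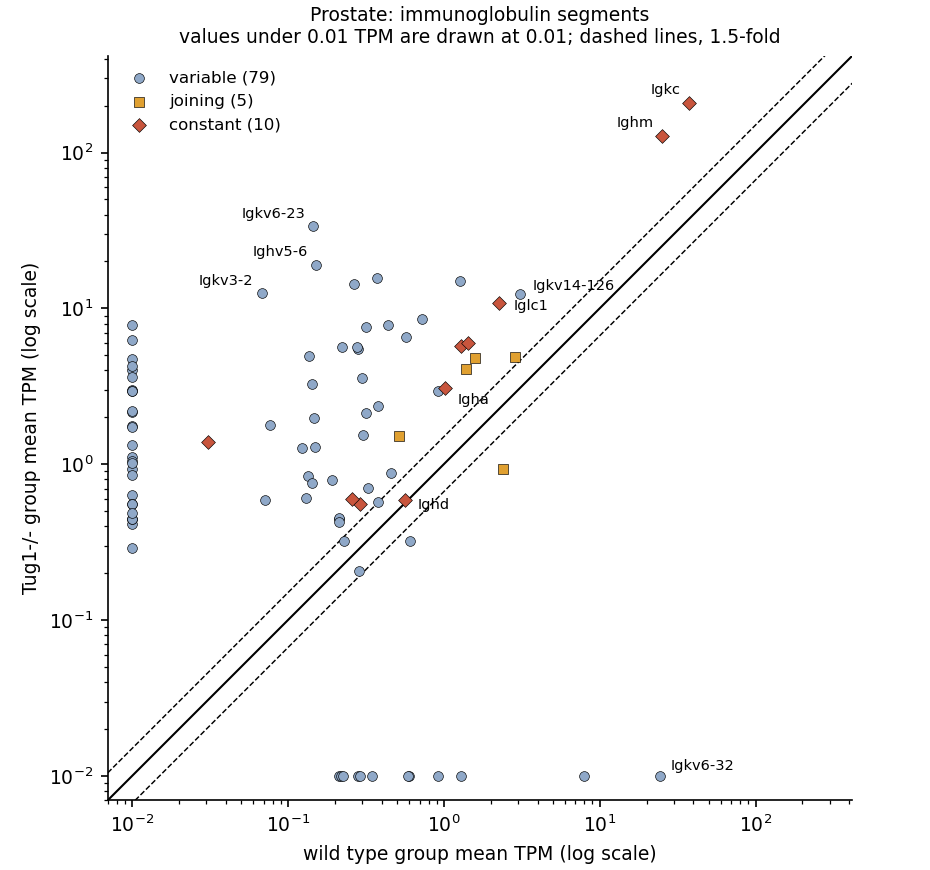
Group mean TPM of the 94 segments listed in prostate, wild type on the horizontal and Tug1-/- on the vertical axis, both on log scales, with values under 0.01 TPM drawn at 0.01. Most variable segments and the constant genes Ighm and Igkc lie above the upper 1.5-fold line, Ighd lies near equality, and Igkv6-32 lies at the floor of Tug1-/-.

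Most B cell markers of prostate were closer to level than the segments. Of 6 past the filter, 1, Ebf1 (0.829 and 1.34 TPM), was past 1.5-fold higher and none lower, and the sum over the 17 listed was 72.6 TPM in wild type against 69.0 TPM in Tug1-/-, of which Blnk gave 62.5 and 56.1 TPM. Cd79a averaged 1.02 and 1.09 TPM, Cd79b 1.42 and 1.81 TPM, and Cr2, a complement receptor that was under the filter, 0.539 and 1.31 TPM. Among 8 plasma cell markers, Jchain alone was past 1.5-fold, at 2.65 and 12.8 TPM, a log2 ratio of 2.23 and close to those of Ighm and Igkc. Under the filter, Mzb1 averaged 0.578 and 1.41 TPM, Tnfrsf17 0.223 and 0.510 TPM and Irf4 0.444 and 0.565 TPM. Several markers past it were far above Jchain in both groups, for example Fkbp11 (910 and 832 TPM) and Creld2 (819 and 1000 TPM). Whether they came from plasma cells was not tested. Of 10 immunoglobulin receptors and transporters 2 were past 1.5-fold higher, the IgE receptor chain Fcer1a (0.540 and 1.82 TPM) and the IgG receptor Fcgr1 (1.03 and 1.60 TPM), and none lower, with Pigr at 70.5 and 57.6 TPM.

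Transcripts of other tissue differed between the group means of prostate too. The 6 seminal vesicle markers summed to 22281 TPM in wild type against 67084 TPM in Tug1-/-, with 3 past 1.5-fold higher, whereas the 6 prostate markers summed to 88549 and 80898 TPM. Of 6 macrophage markers 4 were past 1.5-fold higher and of 5 erythroid markers 4, and the 1 hepatocyte marker past the filter, Cyp2e1, averaged 8.08 and 62.2 TPM. Of 6 markers of mucosal and glandular epithelium 2 were past it higher, Lpo (2.52 and 8.18 TPM) and Krt7 (2.22 and 3.59 TPM). With 3 and 2 samples behind the means, a single sample can carry these transcripts. Their part in the immunoglobulin values was not tested.

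In eyes and liver the segments were few and low, with 43 of 48 and 90 of 99 resting on under 10 mean normalized reads, and Igkc was within 1.5-fold in both. In eyes, Ighm averaged 11.4 and 15.1 TPM, Igkc 11.6 and 14.5 TPM and Ighd 1.34 and 1.68 TPM, none past 1.5-fold. Ighg2c averaged 2.91 and 1.66 TPM (log2 ratio -0.78), and was the 1 segment past 1.5-fold lower of 9 compared, against 3.82% of 19203 genes. The 3 past it higher, against 2.84%, were Igkv4-58 (0.0607 and 2.12 TPM), Igkj4 and Ighj3, each from means of 1.07 to 5.59 normalized reads, and with a minimum of 10 reads none was past it higher. Of 9 B cell markers none was past 1.5-fold, and of 10 plasma cell markers 1 was lower, Prdm1 (10.1 and 6.33 TPM), and none higher. Pigr averaged 2.00 and 6.55 TPM, and of 6 erythroid markers 5 were past 1.5-fold higher. Of 4 neutrophil markers 3 were past it higher and 1 lower, and of 10 markers of mucosal and glandular epithelium 2 were higher, Muc5ac (0.556 and 8.43 TPM) and Ltf (3.52 and 7.56 TPM), and 2 lower. Of 7 macrophage markers 1 was past it higher, Timd4 (0.746 and 1.34 TPM), as was 1 of 2 hepatocyte markers, Cyp2e1 (39.1 and 181 TPM). The 1 testis germ cell marker past the filter, Tssk6 (3.16 and 1.86 TPM), was past it lower. The part of these in the eye values was not tested.

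In eyes the most abundant variable segments after Igkv4-58 were Igkv9-120 (1.53 and 0.337 TPM), Igkv1-135 (1.11 and 0.272 TPM), Igkv1-117 (0.407 and 0.807 TPM) and Iglv1 (0.483 and 0.699 TPM), all with under 5 mean normalized reads. The remaining constant genes were below the filter: Igha averaged 0.642 and 0.645 TPM, Ighg2b 0.480 and 0.0756 TPM, Ighg1 0.289 and 0.0644 TPM, Ighe 0.0138 and 0.0825 TPM, and the 3 lambda genes summed to 1.79 and 2.22 TPM. The variable segments of eyes together were level, at 11.003 and 11.14 TPM.

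In liver, Ighm averaged 11.04 and 19.2 TPM (log2 ratio 0.79, from a mean of 514 normalized reads) and Ighd 1.504 and 1.03 TPM, so that the Ighm level was 7.34 times that of Ighd in wild type and 18.6 times in Tug1-/-. Igkc averaged 16.7 and 19.2 TPM, Iglc1 0.973 and 1.13 TPM, Iglc2 1.18 and 1.36 TPM and Iglc3 1.13 and 1.10 TPM. Of 11 segments compared, 4 were past 1.5-fold higher, against 2.97% of 11849 genes, and 1 lower, against 2.25%. The 4 were Ighm, Iglv1 (1.24 and 2.07 TPM), Igkj2 and Igkj4, the last 2 from 1.32 and 0.871 mean normalized reads, and the 1 was Igkv6-32 (1.74 and 0.625 TPM).

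Igkv1-117 averaged 0.891 and 1.36 TPM in liver, Igkv1-135 0.541 and 1.22 TPM and Igkv1-110 0.691 and 0.924 TPM. Igha averaged 0.853 and 0.924 TPM, Ighg2b 1.05 and 0.828 TPM, Ighg2c 0.615 and 0.885 TPM, Ighg1 0.319 and 0.366 TPM and Ighg3 0.0900 and 0.0277 TPM. Neither of the 2 B cell markers past the filter was past 1.5-fold, and Pigr, high in hepatocytes, averaged 1249 and 1190 TPM. Of 7 plasma cell markers 1 was past 1.5-fold higher, Creld2 (25.8 and 48.0 TPM), and none lower. Of 9 macrophage markers 4 were past it higher, as were 1 of 8 hepatocyte markers, Tat (1681 and 3038 TPM), and the 1 neutrophil marker past the filter, S100a9. The part of these in the liver values was not tested.

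**Figure D4:**
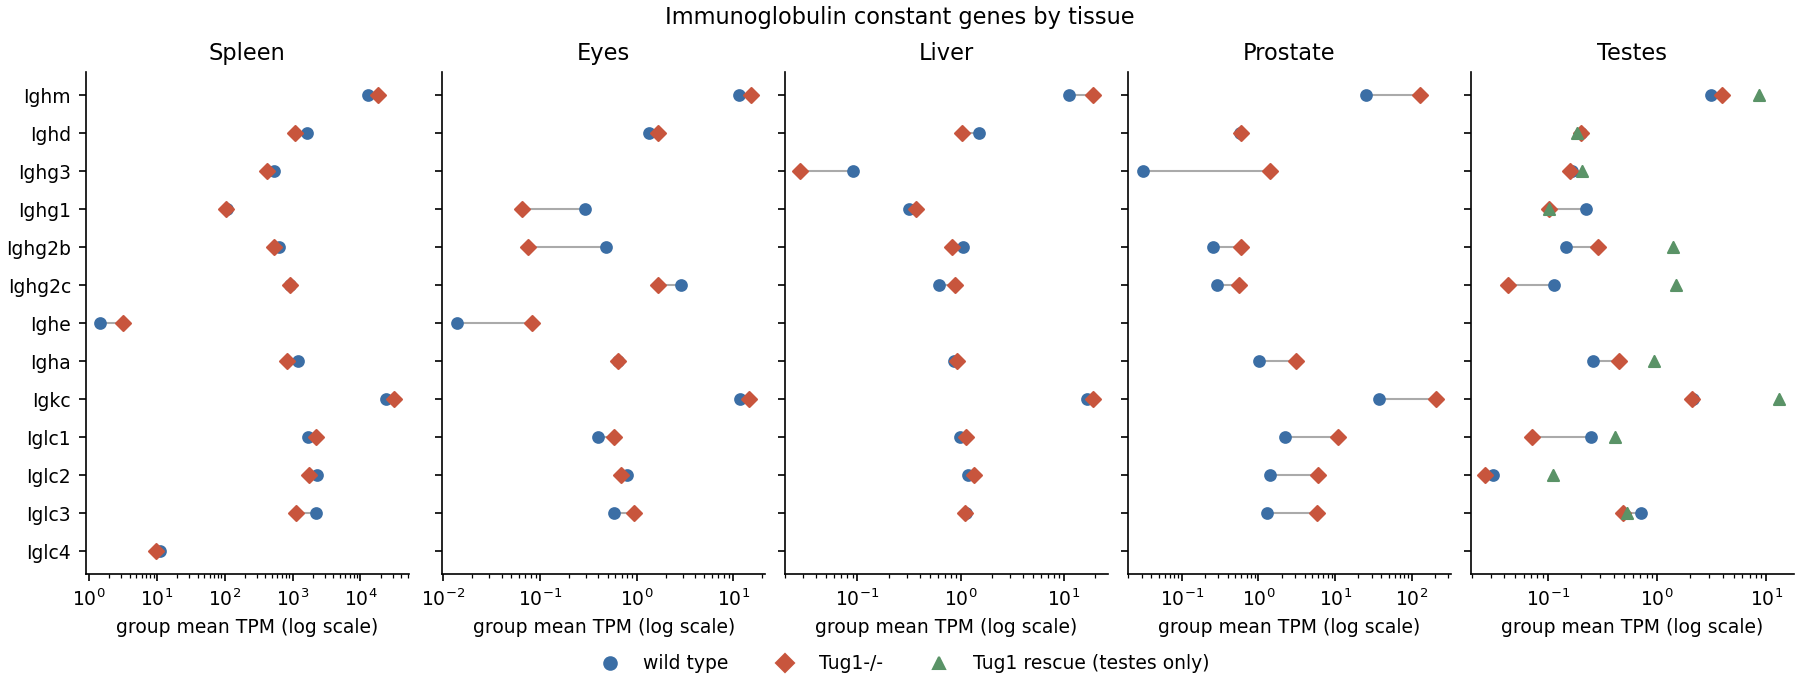
Group mean TPM of each constant gene in 5 tissues on log scales that differ between panels, with wild type as circles, Tug1-/- as diamonds and the rescue group, in testes alone, as triangles. Ighm is at or to the right of wild type in Tug1-/- in every panel, and the widest gaps of Ighm and Igkc between these 2 groups are in prostate.

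In testes, wild-type and Tug1-/- means were alike for the most abundant segments, and the variable segments stood far above the constant genes. Variable segments summed to 98.2 TPM in wild type, 97.1 TPM in Tug1-/- and 107 TPM in rescue, against constant sums of 7.33, 7.87 and 26.9 TPM. The variable sum was thus 13.4, 12.3 and 3.99 times the constant sum, whereas in spleen, eyes, liver, prostate and heart this number lay between 0.309 and 1.04. In fibroblasts, with 4 segments listed and constant sums of 0.280 and 0.0645 TPM, it was 31.5 and 70.2. Of 20 segments compared, 4 were past 1.5-fold higher, against 2.34% of 21813 genes, and 2 lower, against 2.9%. Those higher were Ighj1, Ighj3, Ighj4 and Igkv15-103 (1.14 and 1.77 TPM), and those lower were Ighv11-2 (1.36 and 0.666 TPM) and Ighv1-56 (2.51 and 1.42 TPM). Igkc and Ighm were among the 14 in between.

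Ighv1-84 averaged 33.1 TPM in wild type, 35.2 TPM in Tug1-/- and 29.8 TPM in rescue. Igkv4-63 averaged 22.4, 22.2 and 16.7 TPM, Ighv1-82 11.6, 11.4 and 12.6 TPM, Igkv3-3 6.01, 5.8002 and 4.46 TPM, and Igkv4-50 2.69, 2.78 and 2.15 TPM. These 5 held 77.2% of variable TPM in wild type, 79.6% in Tug1-/- and 61.3% in rescue. In wild-type spleen, where variable segments summed to 49879 TPM, Igkv3-3 averaged 4.70 TPM, less than in testes, and Ighv1-84 43.6 TPM. The annotated segments are counted whether or not they are joined, and a transcript of the unjoined segment cannot be told apart from an assembled one in these counts.

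Several constant genes of testes were higher in the rescue mean than in both others. Ighm averaged 3.11 TPM in wild type, 3.95 TPM in Tug1-/- and 8.49 TPM in rescue, and Igkc 2.11, 2.10 and 13.0 TPM. Ighg2c averaged 0.114, 0.0432 and 1.48 TPM, Ighg2b 0.146, 0.285 and 1.41 TPM, and Igha 0.260, 0.446 and 0.926 TPM, while Ighd was at 0.199, 0.200 and 0.184 TPM. The 64 variable segments other than the 5 above summed to 22.4, 19.9 and 41.5 TPM, and 18, 12 and 3 of all 85 segments were listed at 0 in the 3 groups.

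Other constant genes were low in all 3 groups, with Ighg1 at 0.225, 0.101 and 0.102 TPM, Ighg3 at 0.167, 0.160 and 0.205 TPM and the summed lambda genes at 0.997, 0.586 and 1.04 TPM. The lambda variable segment Iglv1 averaged 0.170, 0.130 and 1.41 TPM, highest in rescue. Of 9 plasma cell markers past the filter, none was past 1.5-fold higher in Tug1-/- and 2 were lower, Sdc1 (8.98, 4.65 and 3.48 TPM) and Fkbp11 (4.67, 1.56 and 1.23 TPM). Jchain averaged 1.04, 1.06 and 1.73 TPM and Xbp1 15.3, 13.65 and 11.6 TPM. The 18 B cell markers summed to 27.8, 30.05 and 29.98 TPM, with Pax5 the highest at 7.42, 7.93 and 7.91 TPM, while Cd79a was at 0.113, 0.138 and 0.257 TPM. The 7 neutrophil markers summed to 6.53, 35.0 and 3.33 TPM, and the 6 without Ltf, which epithelia also express, to 3.08, 4.12 and 3.30 TPM. Of 6 erythroid markers 4 were past 1.5-fold lower in Tug1-/-. Of 6 markers of mucosal and glandular epithelium 2 were past it higher and 3 lower, among the latter Krt19 at 7.45, 3.40 and 0.567 TPM. The part of these in the immunoglobulin values was not tested. The rescue mice differed from Tug1-/- mice by the transgenes and, in the study's methods, a doxycycline diet, which cannot be told apart here, and 3 samples lie behind the rescue mean.

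**Figure D5:**
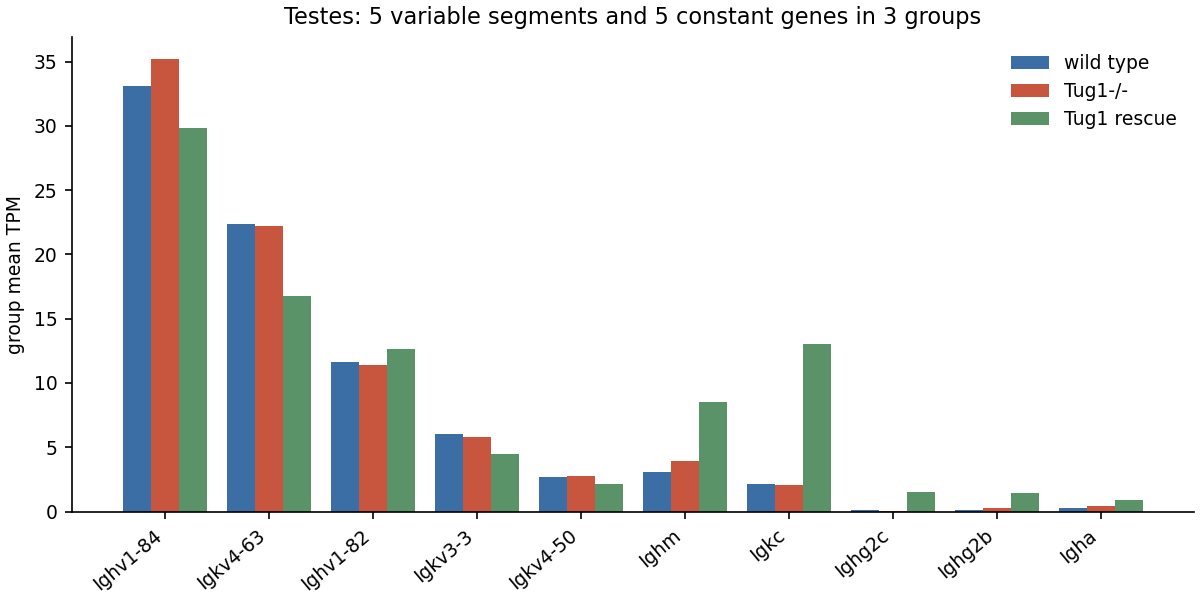
Group mean TPM in testes of the 5 most abundant variable segments and of 5 constant genes, with 1 bar each for wild type, Tug1-/- and rescue. Ighv1-84 is the highest variable segment in each group, at 33.1, 35.2 and 29.8 TPM, and Ighm and Igkc are highest in rescue, at 8.49 and 13.0 TPM.

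Across tissues, the level of Igkc in wild type followed the order spleen (23852 TPM), heart (98.2 TPM), prostate (37.2 TPM), liver (16.7 TPM), eyes (11.6 TPM) and testes (2.11 TPM). Spread over samples is not in the tables, so whether neighbours in this order differ beyond it is not known. Heart had the opposite direction to prostate: of 52 segments compared, 44 were past 1.5-fold lower in Tug1-/-, against 1.82% of 13701 genes, and 1 higher, against 1.67%. There Ighm averaged 63.9 and 32.3 TPM and Igkc 98.2 and 40.2 TPM. Of 16 B cell markers past the filter, 11 were past 1.5-fold lower as well, and the 18 listed summed to 82.5 and 46.7 TPM. Ighg2c stayed level in heart, at 16.8 and 17.6 TPM. Of 7 T cell markers of heart, 2 were past 1.5-fold lower and none higher, and the 13 listed summed to 21.0 and 14.2 TPM. Of 9 plasma cell markers 1 was lower, Jchain (2.24 and 0.347 TPM), and of 2 hepatocyte markers 1 was higher, Tat (0.925 and 1.86 TPM). The part of these in the heart values was not tested.

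The Igkv6-32 segment differed by tissue in its relation to Igkc. In fibroblasts, which listed 4 segments and no Igkc, Igkv6-32 averaged 2.08 and 1.45 TPM, beside Igkv12-89 at 5.74 and 2.23 TPM. In spleen it averaged 418 and 365 TPM, and in heart 1.36 and 0.660 TPM. Its Tug1-/- mean was below wild type in all 6 tissues that listed it. Igkc was above wild type in 3 of them, spleen, prostate and liver. The log2 ratio of Igkv6-32 in spleen was only -0.19, and in testes it averaged 0.537 and 0.258 TPM, under the filter. Its values in heart, liver and fibroblasts rested on means of 7.53, 7.78 and 6.69 normalized reads.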

How the data were processed

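RNA was measured by RNA-seq in 52 mouse samples, of which 46 lie behind the group means used here. PolyA-selected RNA was made into libraries with a kit that does not mark strand, and sequenced as paired ends. Per the study's methods and the submitters' processing notes (CASAVA 1.8.2), the authors aligned reads with STAR to GRCm38 (mm10 in the notes), counted uniquely mapped reads over GENCODE vM16 genes with featureCounts, dropped any gene whose replicates all held under 3 reads, and deposited the mean TPM of each group. The tables also hold a signal made by the authors with DESeq2, the mean normalized count over both genotypes, for all tissues but testes. Further columns hold the authors' comparisons (log2 fold changes, standard errors, test statistics, p-values, adjusted p-values and marks of significance), and these were not used. Brain and F1 hybrid testes were not analysed here.

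Segments were taken by gene type, and the log2 ratio of group means was computed with 0.1 TPM added (Python 3.11.15, pandas 2.3.3). Genes averaging at least 1 TPM were compared, and those past 1.5-fold were counted. Scripts were tested on simulated data. Named by rule were the constant genes, the 5 most abundant variable segments of each tissue, the 5 highest and 5 lowest ratios of spleen among segments averaging at least 10 TPM, the 3 highest and 3 lowest elsewhere at 5 TPM, spleen joining segments of at least 10 TPM, and of each list the 3 most abundant genes and those past 1.5-fold. Others were named where a count was small or a text comparison needed them, after their values were seen. The members and 15 marker lists were chosen with earlier results of these data known. With no counts or values per sample, the depth of each sample is unknown, and neither an SD nor a test could be had. Shared sequence was searched in GENCODE vM21 transcripts, a later release than the one the authors counted over. Alternatives changed the added value, the filter, the fold, the centring and the shortest segments. Some genes of these lists are not reported here.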

Additional observations from a re-analysis of the deposited data

How the results depend on the processing

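No paired analysis was possible because the deposited values are means over each group, and leaving out a replicate was not possible for the same reason. Of 191 values under alternative settings, 149 stayed within 1.5 times of the main value, 41 moved further and 1 lost a direction past 1.5-fold by changing sign. Sums under 1.5-fold that changed sign are given with it below. Shares of all genes are printed only for the main setting and for ratios relative to the B cell list. The cause was not tested except where the setting itself changes how many segments are compared.

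In spleen, a ratio above 2 left 30 segments higher and 17 lower, and ratios taken relative to the summed B cell list, chosen after seeing the data, gave 116 higher and 18 lower, with 12.2% and 1.13% of all genes. In eyes, adding 1 TPM left 0 lower, no filter gave 21 higher and 16 lower, at least 5 TPM left 0 and 0, a ratio above 2 left 0 lower, leaving out segments under 200 bases left 1 higher, and at least 10 mean normalized counts, also chosen after seeing the data, left 0 higher. In liver, no filter gave 33 higher and 20 lower, at least 5 TPM left 1 and 0, a ratio above 2 or leaving out short segments left 2 higher, and at least 10 counts left 2 higher and 0 lower. In prostate, the median log2 ratio was 1.99 with 1 TPM added and 2.44 with no filter, which gave 76 higher and 14 lower. There, at least 5 TPM left 10 higher and 1 lower, and at least 10 counts left 23 higher. In testes, adding 1 TPM left 1 higher and 0 lower, no filter gave 20 and 15, at least 5 TPM left 0 and 0, a ratio above 2 left 1 and 0, centring left 2 higher, and leaving out short segments left 1 higher.

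Without its most abundant member, Ighm in each case, the summed heavy constant log2 ratio was -0.37 in spleen, -0.42 in eyes, -0.12 in liver and 1.49 in prostate. Without Iglv1, that of the lambda variable segments of liver was -0.35, and without Igkv4-58, that of the kappa variable segments of eyes was -0.37. Apart from prostate, each of these signs is opposite to that of the full sum, and only the full heavy sum of liver had been past 1.5-fold. Most segments of eyes, liver and prostate rested on under 10 mean normalized reads, and the testes table holds no reads.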
